A study of Mus musculus with 6 samples.

Results

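Metabotropic glutamate receptors are G protein-coupled receptors through which glutamate, the main excitatory transmitter of the brain, tunes synapses rather than opening a channel itself. They fall into groups by sequence and coupling: group I, with Grm5, acts through Gq, phospholipase C and calcium release and lies mostly on the postsynaptic side, while group II, with Grm2 and Grm3, and group III, with Grm4, Grm7 and Grm8, act through Gi and Go, lower cyclic AMP and restrain transmitter release. The 6 genes described here are those of the family for which the array table held a probe set (that is, a set of short oligonucleotides reading a transcript) annotated to that symbol alone. They had 9 such probe sets, of the 34945 with exactly 1 symbol on the array, which stood for 18193 genes. Grm7 had 3, Grm5 had 2 and the other genes 1 each. A further probe set annotated to a member and another gene was left out. No filter on dim signals was applied to the members, and 8 of the 9 would have passed a filter that drops the dimmest 40% of probe sets.

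The study set 4 mice lacking melanotransferrin (MTf -/-, strain given as C57BL/6 - Lucy) against 2 wild-type littermates (MTf +/+, C57BL/6), all females of 123 days, with total RNA of brain on 1 Affymetrix mouse expression array per mouse. Melanotransferrin is a relative of transferrin that binds iron and sits in the cell membrane. Neither the way the allele was deleted nor the meaning of Lucy is stated in the labels. The comparison asked which brain transcripts differ without melanotransferrin, and the arrays are called knockout 1 to 4 and wild type 1 and 2 in order of deposit.

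Signals are linear intensities scaled by the authors, with array medians of 238.2 to 278.3 in the knockouts and 192.5 and 240.3 in wild type. The number of arrays limits the precision. Meltf, the targeted gene, read 80.7 to 155.9 in the knockouts and 146.5 and 228.7 in wild type on its only probe set, so this dim signal did not separate the groups and does not check the labels. The arrays wild type 1 and knockout 2 stood apart most plainly. Knockout 4 also differed, with the lowest array weight in limma, 0.748 against 0.848 to 1.42 elsewhere, and a mean correlation with the other arrays of 0.961, between the 0.956 of wild type 1 and the 0.963 of knockout 2. On wild type 1, 24.5% of probe sets lay below the offset of 49.5 that was added before taking log2, against 17.6% to 20.2% elsewhere. Knockout 2 lacked most of the signal of many cerebellar genes. Pcp2, of Purkinje cells, read 185.8 there and 22260 to 34050 on the other arrays. Neurod1, a transcription factor of granule cells, read 1931 there and 7068 to 12444 elsewhere. The loss differed between markers: Calb1, also of Purkinje cells, read 11342 there and 15859 to 24097 elsewhere. General neuron markers were present on all arrays, with Snap25 at 45275 or more. Results are therefore given with and without these 3 arrays where they turn on them.

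Across the family, no receptor differed between the genotypes past the threshold. Of the 9 probe sets, 0 had an adjusted p under 0.05 in limma, where the share over all 45037 probe sets was 0%, and the adjusted p ran from 0.737 to 0.993. With an unadjusted p under 0.05 there was 1 of 9, the dimmer probe set of Grm5, higher in the knockout, against 6.76% of all probe sets, of which 4.92% were higher and 1.84% lower. Without wild type 1 it was 0 of 9. The groups did not overlap on 2 of 9 probe sets, 1 higher and 1 lower in the knockout, against 16.1% of all, with 11.3% higher and 4.81% lower. At this number of members both counts are near the background. The log2 fold change was above 0 on 5 of the 9 probe sets, against 60.3% of all, on 3 of 9 after median centring of the arrays, on 6 of 9 after quantile normalisation or with array weights, and on 3 (without knockout 2) to 6 (without knockout 4) with 1 array left out. Taking the brightest probe set of each gene, 2 receptors lay higher and 4 lower in the knockout, where 53.6% of all genes lay higher, and 0 of the 6 lay higher after median centring, 3 after quantile normalisation or with array weights, and 1 (without knockout 1, 2 or 3) to 3 (without knockout 4) with 1 array left out. The median over these receptors was a log2 fold change of -0.13, against 0.024 over the 18193 genes.

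**Figure D1:**
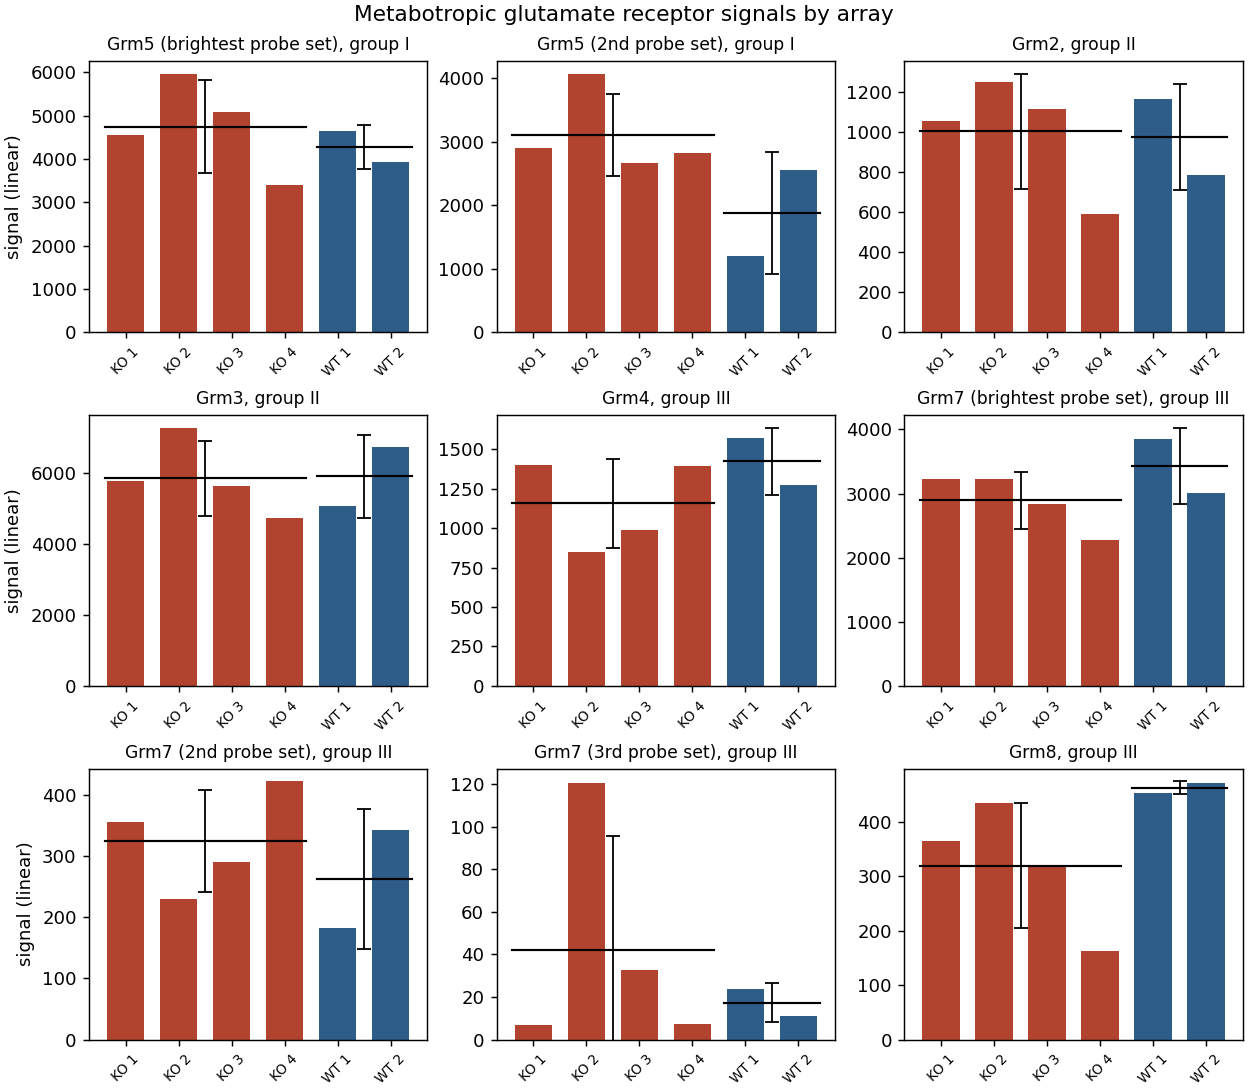
Signal on the linear scale (y axis) of the 9 receptor probe sets on each array, with knockouts (KO) in red and wild types (WT) in blue. Horizontal lines are group means and error bars SD (n = 4 and n = 2), and the lower end of the bar of the dimmest Grm7 probe set lies below 0 and is not drawn. The groups are apart for the dimmer Grm5 probe set, where wild type 1 reads 1195, and for Grm8, where knockout 4 reads 162.9.

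Grm5 is the group I receptor measured here. It is abundant in forebrain neurons, above all in hippocampus, striatum and cortex, and low in the adult cerebellum. Its brighter probe set, 1455272_at, read 4543, 5964, 5084 and 3399 in knockouts 1 to 4, against 4646 and 3924 in wild types 1 and 2. Both wild-type values lay inside the knockout range. The group means were 4748 ± 1073 in the knockout (SD, n = 4) and 4285 ± 510.5 in wild type (SD, n = 2), a log2 fold change of 0.12 ± 0.20 (SE) and a 95% interval from -0.33 to 0.57 (limma adjusted p = 0.911). With 1 array left out it ran from 0.0021 without wild type 2 to 0.27 without knockout 4, and was 0.0042 without knockout 2 and 0.24 without wild type 1.

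The dimmer Grm5 probe set, 1456119_at, gave another picture. It read 2899, 4064, 2658 and 2815 in knockouts 1 to 4, against 1195 and 2559 in wild types 1 and 2. All knockouts lay above both wild types, but wild type 2 was close to knockout 3, and wild type 1 was far below every other array. The means were 3109 ± 644.4 in the knockout (SD, n = 4) and 1877 ± 965.1 in wild type (SD, n = 2), a log2 fold change of 0.79 ± 0.27 (SE) and a 95% interval from 0.19 to 1.39, with an unadjusted p of 0.0153 and an adjusted p of 0.737 in limma. Leaving out wild type 1 brought the value to 0.26, leaving out knockout 2 as well brought it to 0.12, and leaving out wild type 2 brought it to 1.32 with a limma adjusted p of 0.0671. The ratio of the dimmer to the brighter Grm5 probe set was 0.638, 0.681, 0.523 and 0.828 in knockouts 1 to 4, against 0.257 and 0.652 in wild types 1 and 2, so that wild type 1 had the lowest ratio by a wide margin. The part of the transcript that each probe set reads was not analysed here.

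Grm2, a group II receptor found largely on axons of excitatory neurons and in Golgi cells of the cerebellum, read 1056, 1249, 1117 and 590.1 in knockouts 1 to 4, against 1163 and 786.4 in wild types 1 and 2 (probe set 1435607_at). Knockout 4 was the lowest array and knockout 2 the highest, so the knockout range enclosed both wild types. The means were 1003 ± 286.9 in the knockout (SD, n = 4) and 974.6 ± 266.2 in wild type (SD, n = 2). The log2 fold change was 0.015 ± 0.28 (SE) and a 95% interval from -0.61 to 0.64 (limma adjusted p = 0.993). It was 0.28 with wild type 1 left out and -0.25 with wild type 2 left out. Without knockout 2 it was -0.10, without knockout 4 it was 0.24, and without knockout 2 and wild type 1 together 0.17, so its sign turned with the arrays used.

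Grm3, the group II receptor made by astrocytes as well as neurons, had values of 5792, 7291, 5648 and 4738 in knockouts 1 to 4, against 5094 and 6740 in wild types 1 and 2 (probe set 1430136_at). Here too the knockout range enclosed both wild types. The means, 5867 ± 1058 in the knockout (SD, n = 4) and 5917 ± 1164 in wild type (SD, n = 2), differed by a log2 fold change of -0.015 ± 0.18 (SE) and a 95% interval from -0.42 to 0.39 (limma adjusted p = 0.990). The interval spans differences in either direction. Without wild type 1 the value was -0.22, without wild type 2 it was 0.19, and without knockout 4 it was 0.081. Without knockout 2 and wild type 1 together it was -0.32 (limma unadjusted p = 0.0959, adjusted p = 0.9997). Among the 12 astrocyte markers 4 were higher and 8 lower in the knockout. Their median was -0.17 on the log2 scale, with none past an adjusted p of 0.05 in limma, and 2 of the lower ones had an unadjusted p under 0.05, where 2.45% of all genes were lower at that p. Their mean log2 level, each gene centred over the arrays, was highest in wild type 1 and lowest in knockout 2, though their summed signal was lowest in wild type 1, while Grm3 was highest in knockout 2.

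**Figure D2:**
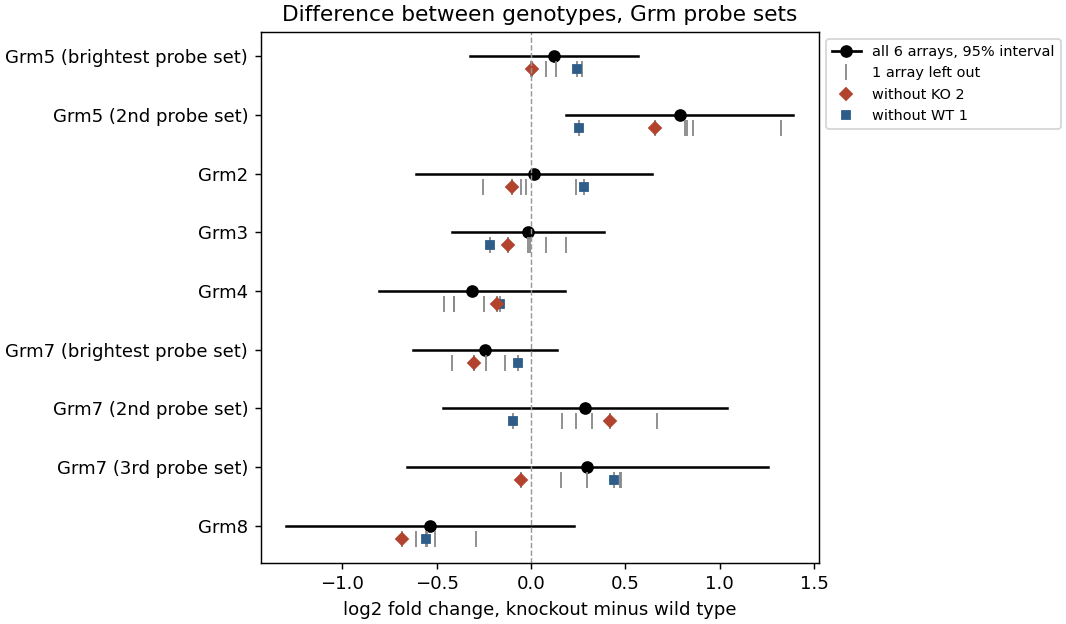
Log2 fold change, knockout minus wild type (x axis), of each receptor probe set (y axis), with its 95% interval as a black line and grey ticks for fits with 1 array left out. Blue squares mark the fits without wild type 1 and red diamonds those without knockout 2. The dimmer Grm5 probe set moves to 0.26 without wild type 1, and Grm4 to -0.16 without wild type 1 and -0.18 without knockout 2.

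Grm4 is a group III receptor on the parallel fibre terminals of cerebellar granule cells, and these cells are where its transcript is richest in the rodent brain. It had values of 1397, 846.6, 988.1 and 1395 in knockouts 1 to 4, against 1574 and 1273 in wild types 1 and 2 (probe set 1457299_at). Knockouts 2 and 3 were the low arrays, and knockouts 1 and 4 lay between the wild types. The means were 1157 ± 282.3 in the knockout (SD, n = 4) and 1424 ± 213.1 in wild type (SD, n = 2), a log2 fold change of -0.31 ± 0.22 (SE) and a 95% interval from -0.80 to 0.18 (limma adjusted p = 0.788). Without knockout 2 the mean was 1260 ± 235.4 in the knockout (SD, n = 3) and the log2 fold change -0.18. Leaving out wild type 1 alone brought the log2 fold change to -0.16, and leaving out knockout 4 brought it to -0.41. Without knockout 2 and wild type 1 together it was -0.031.

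Markers of cerebellar cells were set beside Grm4. The level of the 15 granule cell markers, taken as their mean log2 value after centring each gene over the arrays, was 0.37, -1.75, -0.17 and 0.56 in knockouts 1 to 4, against 0.45 and 0.53 in wild types 1 and 2. The summed signal of these markers ran from 18145 to 81740 in the knockouts and was 81561 and 84846 in wild types 1 and 2, and no marker was at 0. The same arrays, knockouts 2 and 3, were the lowest for both the markers and Grm4. On the other arrays the order differed: Grm4 was highest in wild type 1 and the level of the granule cell markers in knockout 4. The Purkinje cell list, 8 markers measured, gave -2.38 in knockout 2 and 0.17 to 0.59 elsewhere. Of the granule cell markers 12 of 15 were lower in knockout 2 than on every other array, and of the Purkinje markers 8 of 8. The signal of Grm4 in knockout 2 was 0.607 times the median of the other arrays. On knockout 2 the difference of Grm4 from the mean of the other arrays, -0.60 on the log2 scale, was among the lowest of the probe sets past the dim filter, at percentile 4.91. In whole brain RNA, fewer cells of a type and less RNA per cell cannot be told apart. The part of the cerebellar content in the Grm4 values was not tested. The fits without knockout 2 leave out all that is particular to that array and so do not measure that part.

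Grm7, a group III receptor placed in the active zone of many terminals, was read by 3 probe sets. The bright one, 1443119_at, read 3234, 3221, 2843 and 2279 in knockouts 1 to 4, against 3852 and 3010 in wild types 1 and 2. Knockouts 3 and 4 lay below both wild types and knockouts 1 and 2 between them. The means were 2894 ± 448.4 in the knockout (SD, n = 4) and 3431 ± 595.9 in wild type (SD, n = 2), a log2 fold change of -0.24 ± 0.17 (SE) and a 95% interval from -0.63 to 0.14 (limma adjusted p = 0.786), which was -0.069 without wild type 1 and -0.14 without knockout 4.

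The other Grm7 probe sets had little signal, and their fold changes were above 0 with all arrays and below 0 without a certain array, named for each. The second, 1458861_at, read 356.2, 230.1, 290.5 and 422.3 in knockouts 1 to 4, against 181.8 and 343 in wild types 1 and 2, a log2 fold change of 0.29 ± 0.34 (SE) (limma adjusted p = 0.873), or -0.096 without wild type 1. Wild type 1, the highest array on the bright probe set, was the lowest on this one, and knockout 4, the lowest on the bright one, was the highest. The third, 1459532_at, read 6.9, 120.7, 32.7 and 7.5 in knockouts 1 to 4, against 23.8 and 10.9 in wild types 1 and 2, below the offset on all arrays but knockout 2. Its log2 fold change of 0.30 had a standard error of 0.43 and was -0.052 without knockout 2. It was the 1 member that the dim filter would drop.

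Grm8, a group III receptor with its best known sites in the olfactory bulb and in selected terminals elsewhere, read 364.3, 433.8, 316.5 and 162.9 in knockouts 1 to 4, against 453.3 and 470.2 in wild types 1 and 2 (probe set 1421530_a_at). Every knockout lay below both wild types, knockout 2 by a narrow margin and knockout 4 by the widest. The means were 319.4 ± 114.9 in the knockout (SD, n = 4) and 461.8 ± 11.95 in wild type (SD, n = 2), 1.45-fold lower on the fitted scale. The log2 fold change was -0.53 ± 0.34 (SE), with a 95% interval from -1.30 to 0.23 (limma unadjusted p = 0.151, adjusted p = 0.774). Without knockout 4 the log2 fold change was -0.29, and without wild type 1 it was -0.56. The olfactory bulb list was higher in knockout 2, at 0.33, and lay between -0.13 and 0.019 on the other arrays, with -0.077 in knockout 4.

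The order of the receptors by signal was stable over most arrays. By the brightest probe set of each gene it ran Grm3, Grm5, Grm7, Grm4, Grm2 and Grm8. By the mean of a gene's probe sets Grm7 moved from place 3 to place 5, behind Grm4 and Grm2. A signal depends on the probes as well as on the transcript, so this is an order of signals and not of transcript amounts. At the brightest probe sets, Grm3, Grm5 and Grm7 held the upper places and Grm8 the last on 6 of 6 arrays. Grm4 and Grm2 changed places: Grm4 was above Grm2 on 4 arrays and below it in knockouts 2 and 3, and the ratio of Grm4 to Grm2 ran from 0.678 to 2.36. The ranges over the arrays overlapped between Grm3 and Grm5, between Grm5 and Grm7 and between Grm4 and Grm2, and did not overlap between Grm7 and Grm4 or between Grm2 and Grm8. Among all probe sets of an array, Grm3 lay at the 93.2 to 95.6 percentile, the brighter Grm5 at the 90.6 to 94.5, Grm4 at the 72.5 to 81.1 and Grm8 at the 37.0 to 63.4 percentile.

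Single arrays were low or high for several receptors at once. Knockout 4 had the lowest signal of all arrays for 5 of the 6 genes by their brightest probe sets, namely Grm2, Grm3, Grm5, Grm7 and Grm8. That was 5 of the 9 probe sets, and on 1 of the 9 it was highest. Among all probe sets past the dim filter knockout 4 was lowest for 17.1% and highest for 22.5%. Knockout 2 had the highest signal for Grm2, Grm3 and both probe sets of Grm5, as well as for the third probe set of Grm7. That was 5 of 9 probe sets, or 3 of 6 genes by their brightest probe sets, against 15.3% of all probe sets past the dim filter. The third Grm7 probe set is not past that filter. These counts were chosen after the values were seen. On knockout 2 the lists of excitatory cortex and hippocampus, striatum and olfactory bulb markers were at their highest too, at 0.38, 0.52 and 0.33. There the other arrays reached at most 0.018, 0.31 and 0.019. The GABA neuron, general neuron and microglia lists were also highest on knockout 2, at 0.20, 0.096 and 0.16. For these the other arrays reached at most 0.045, 0.061 and 0.11. The granule cell, Purkinje cell, astrocyte and oligodendrocyte lists were at their lowest on knockout 2. On knockout 4 the striatum list was at -0.29 and the general neuron list at -0.037, but knockout 1, which was not lowest for any receptor at its brightest probe set, was lower on both lists, at -0.35 and -0.093. The part of regional content in the receptor values was not tested.

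**Figure D3:**
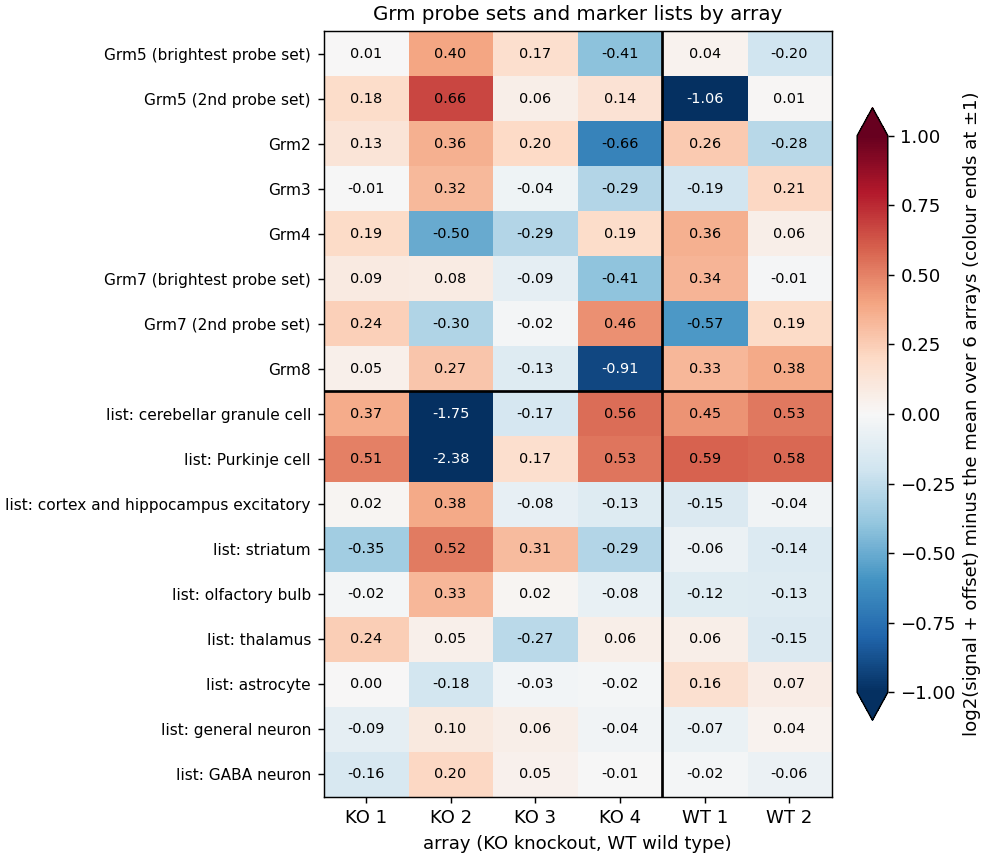
Log2 level of each receptor probe set past the dim filter and of marker lists (rows) on each array (columns, KO knockout and WT wild type), relative to its mean over the 6 arrays, with the value in each cell. Knockout 2 is low for Grm4 (-0.50) and the cerebellar lists and high for both Grm5 probe sets, and knockout 4 is low for Grm2 (-0.66) and Grm8 (-0.91).

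Genes whose pattern over the 6 arrays came closest to a receptor were sought for the 2 receptors whose brightest probe set had the widest range, Grm8 and Grm2, by the root mean square difference of centred log2 values among 13299 genes past the dim filter. For Grm8 these were Brdt at 0.096, Irak1 at 0.10, Zfp13 at 0.13, and St6gal2 and Mllt10 at 0.14, where the median gene was at 0.49. All of them were at their lowest in knockout 4, as Grm8 was, which the choice by closeness to Grm8 made likely. St6gal2 read 1050, 1360, 925.4 and 415.3 in knockouts 1 to 4, against 1153 and 1181 in wild types 1 and 2. For Grm2 they were Pak6 at 0.086, Ubxn11 at 0.10, Map3k6 at 0.11, and Calhm5 and Dclk2 at 0.12, where the median gene was at 0.42. Pak6, a kinase of the p21-activated family, read 719.8, 882.4, 781 and 410.1 in knockouts 1 to 4, against 957 and 587.2 in wild types 1 and 2. With 6 arrays and this many genes, close matches are a description of these arrays only.

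In 3 lists of partner genes 0 passed an adjusted p of 0.05 in limma, and counts at an unadjusted p are given with each list. Of the 22 genes listed for group I signalling 18 had a probe set. In the knockout 10 were higher and 8 lower (2 and 16 after median centring), the median was 0.0084 on the log2 scale, and 0 passed an adjusted p of 0.05 in limma. None of the 18 had an unadjusted p under 0.05 either, against 6.49% of all genes. Plcb1, the phospholipase C downstream of Gq, had the smallest p. It read 6545, 7624, 6846 and 6846 in knockouts 1 to 4, against 5877 and 5758 in wild types 1 and 2, a log2 fold change of 0.26 ± 0.12 (SE) (limma adjusted p = 0.744). Homer1, the scaffold that ties group I receptors to calcium stores, averaged 5784 ± 841.4 in the knockout (SD, n = 4) and 4850 ± 64.2 in wild type (SD, n = 2), or 0.24 on the log2 scale, and knockout 1 lay between the wild types (limma adjusted p = 0.764). Homer3, the family member of Purkinje cells, was named after its values were seen. It read 508.2 in knockout 2 and 1210 to 2128 on the other arrays.

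Of the 29 genes listed for group II and III signalling 28 had a probe set. In the knockout 16 were higher and 12 lower (8 and 20 after median centring), with a median of 0.080 on the log2 scale. In limma 0 passed an adjusted p of 0.05, and 3 had an unadjusted p under 0.05, all higher in the knockout, where 4.04% of all genes were. Elfn2, a synaptic adhesion protein that binds group III receptors across the cleft, had the smallest p. It read 1187, 895.4, 938.7 and 1205 in knockouts 1 to 4, against 501.7 and 718.4 in wild types 1 and 2, so all knockouts lay above both wild types, and its log2 fold change was 0.75 ± 0.20 (SE) (limma adjusted p = 0.737), or 0.51 without wild type 1. Pias1, a SUMO ligase, averaged 2785 ± 490.0 in the knockout (SD, n = 4) and 1990 ± 198.2 in wild type (SD, n = 2), a log2 fold change of 0.46 (limma adjusted p = 0.737).

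Genes of glutamate supply and clearance went both ways. Of 12 measured from a list of 15, 6 were higher and 6 lower (3 and 9 after median centring), with a median of -0.0087 on the log2 scale and 0 past the threshold in limma. An unadjusted p under 0.05 was found for 2, both lower in the knockout, where 2.45% of all genes were. Slc17a6, the vesicular glutamate transporter of thalamus, midbrain and hindbrain, read 4696, 3335, 3877 and 5134 in knockouts 1 to 4, against 7112 and 5136 in wild types 1 and 2. Knockout 4 and wild type 2 were all but equal, and the log2 fold change of -0.52 (standard error 0.19, limma adjusted p = 0.737) was -0.29 without wild type 1. Slc38a2, a neutral amino acid transporter that carries glutamine, averaged 7302 ± 863.6 in the knockout (SD, n = 4) and 9399 ± 95.7 in wild type (SD, n = 2), a log2 fold change of -0.37 (limma adjusted p = 0.737).

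**Figure D4:**
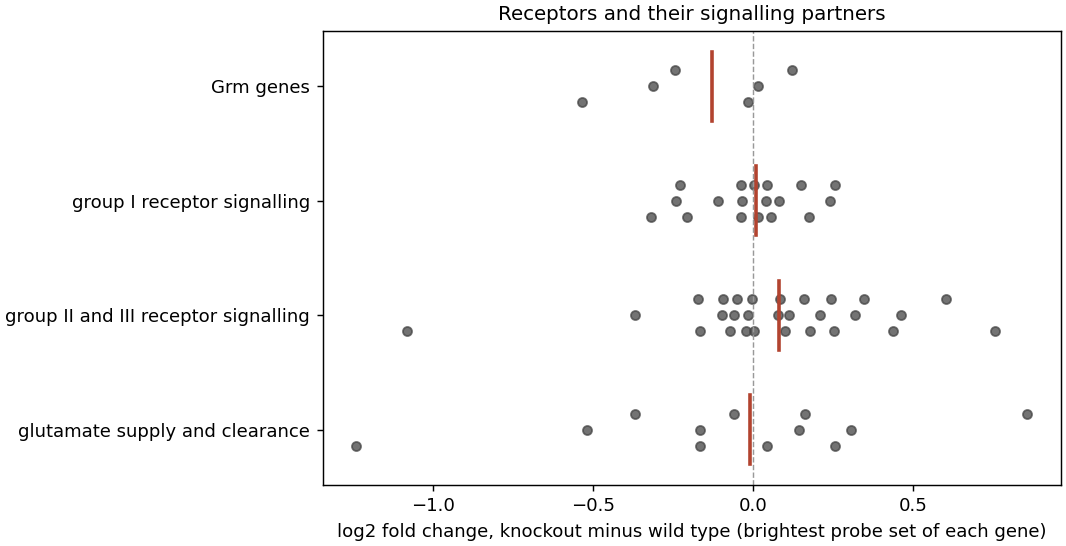
Log2 fold change, knockout minus wild type (x axis), of the receptors and of listed partner genes (rows), 1 point per gene at its brightest probe set, with the list median as a red bar. The medians lie at -0.13 for the receptors, 0.0084 for group I signalling, 0.080 for group II and III signalling and -0.0087 for glutamate supply and clearance.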

How the data were processed

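Brain RNA of 6 mice was measured on 1 array each. The deposited values are linear signal intensities, 1 per probe set and array. Per the submitters' processing notes they came from GCOS 1.3; how probes were summarised and scaled was not given in the sources used. All arrays had a mean of 1000.0 over the middle 96% of their intensities, so a scaling by the authors is present in the deposited file.

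Of 45101 probe sets 64 controls were left out. Symbols came from the platform annotation, with 0 changed against GRCm38.p6. Signals were taken to log2 after adding 49.5, their 20th percentile, which understates fold changes of dim genes. Knockout minus wild type was fitted on all 45037 probe sets with limma 3.58.1 under R 4.3.3 (lmFit, then eBayes with a trend on intensity), 4 residual degrees of freedom, with no covariate. P-values are 2-sided, adjusted by Benjamini-Hochberg over all probe sets. They measure the spread between mice and arrays together. Plots used Python 3.11.15.

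Named genes were all members, and in each partner list the genes called or else the 2 with the smallest p. The 5 closest patterns to the 2 receptors of widest range at their brightest probe set were named too. Of the 3 brightest markers of each list, only Pcp2, Calb1, Neurod1 and Snap25 were named as markers. Homer3 was added after its values were seen. The members and lists were chosen with earlier results of these data known. Marker list medians (log2 fold change) not given with the results were 0.16 for excitatory cortex and hippocampus, 0.14 for striatum, 0.22 for olfactory bulb, 0.10 for thalamus, 0.025 for neurons in general, 0.096 for GABA neurons, -0.11 for oligodendrocytes, -0.20 for microglia, -0.062 for endothelium and -0.19 for choroid plexus. They were -0.51 for granule cells and -0.83 for Purkinje cells, or -0.23 and -0.21 without knockout 2. In limma 0 marker genes passed. Listed genes without a probe set of 1 symbol were not analysed here. The alternatives were median centring, quantile normalisation, offsets 4 and 0.25 times as large, a dim filter, no trend, array weights and leaving out each array. Leaving out knockout 2 and wild type 1 together was chosen after seeing the data.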

Additional observations from a re-analysis of the deposited data

How the results depend on the processing

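No Grm probe set passed an adjusted p of 0.05 in limma under any of the 14 alternatives, and the smallest adjusted p was 0.0671, for the dimmer Grm5 probe set without wild type 2. With 1 wild type left, that array is assumed to vary as the knockouts do. Of 108 refitted fold changes 96 kept their sign, leaving aside the dim filter and the fit with no trend, which cannot move a fold change. Over all probe sets the fold changes had a median (log2) of -0.14 with median centring, 0.078 as deposited and -0.0071 after quantile normalisation. Median centring turned the brighter Grm5 probe set to -0.092 and Grm2 to -0.20. Grm3 was 0.028 after quantile normalisation and 0.0063 with array weights. Leaving out 1 array, Grm2 ran from -0.25 to 0.28, Grm3 from -0.22 to 0.19, the second Grm7 probe set from -0.096 to 0.67 and the third from -0.052 to 0.48. Over all probe sets of the gene, the mean fold change was 0.11 for Grm7 and 0.46 for Grm5. As single probe sets, the dimmer Grm5, Grm4, Grm8 and the bright Grm7 kept their signs under every alternative run, Grm4 from -0.53 to -0.031 and Grm8 from -0.75 to -0.29.

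The number of Grm probe sets with an unadjusted p under 0.05, 1 as reported, was 2 after median centring, 0 without the intensity trend, 0 without knockout 2 and wild type 1 together, and from 0 to 1 with 1 array left out, 0 being without wild type 1. The order of the receptors kept 3 of 6 places by the mean of a gene's probe sets. Median centring left 2 higher and 16 lower for group I signalling, 8 higher and 20 lower for group II and III signalling, and 3 higher for glutamate supply, so the balance of directions in these lists depended on scaling. The cause of these changes was not tested. No paired analysis was possible because the labels give no shared replicate number. Signals near the offset, as for the third Grm7 probe set, have little precision.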
